A study of Drosophila melanogaster with 6 samples.

Results

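The genes described here encode contractile proteins of fly muscle: the muscle actins Act57B, Act79B, Act87E and Act88F, the muscle myosin heavy chain Mhc, the tropomyosin Tm2 and the troponin C proteins TpnC4 and TpnC41C. Members were the probe sets that the platform annotation pairs with exactly 1 of these 8 genes. The probe sets were taken by annotation alone, but the genes were chosen with earlier results of these data known. They came to 6 of the 14010 probe sets, 1 each for Act79B, Act87E, Act88F, Tm2, TpnC4 and TpnC41C. The annotation used here listed no probe set for Act57B or Mhc, so the myosin and 1 of the 4 actins were not analysed here. Beside the members stand the 3 actin controls of the array (AFFX-Dros-ACTIN), which read the 5' end, the middle and the 3' end of an actin transcript.

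Heads were compared between tim-MJD flies (3 arrays), in which Tim-gal4 drives UAS-MJD, and wild type flies (3 arrays). Tim-gal4 is active where the promoter of timeless, a clock gene, is active, and UAS-MJD encodes the protein of Machado-Joseph disease. A polyglutamine length of 78 is labelled for tim-MJD 1 and 2 and none for tim-MJD 3. Wild type 1 and 3 are labelled as strain CS, and no strain is labelled for wild type 2. Flies of both groups were 2 to 4 days old and had spent 3 days in light-dark cycles before collection at Zeitgeber time 16. Flies with Tim-gal4 alone or UAS-MJD alone were not analysed here, so the effects of driver, transgene and strain cannot be told apart.

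In striated muscle, actin polymers form the thin filaments and myosin the thick filaments. Tropomyosin lies along actin and, with the troponin complex, keeps myosin off it until calcium binds troponin C. Flies use different actin and troponin C genes in different muscles. Act88F and TpnC4 are known from the indirect flight muscle of the thorax, Act79B and Act87E from other muscles, and TpnC41C from adult muscles. In a head, muscle moves mainly the proboscis and antennae.

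No member passed the adjusted threshold, but the troponin C gene TpnC41C came close and had the best supported difference of the 6. On the log2(intensity + 16) scale it read 1.88 times lower in tim-MJD heads. The actin Act87E read higher in tim-MJD heads with a wide interval, and Act79B, Act88F, Tm2 and TpnC4 had overlapping groups. The middle and 3' actin controls of the array, which are not muscle probe sets by name, were several fold higher in tim-MJD heads, with no overlap between the groups. Of all tested probe sets 10.0% were higher without overlap.

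All values are intensities of probe sets on a linear scale of unstated basis. The arrays had median intensities of 26.1 to 31.5, and the highest of 23 negative control probe sets read between 29.8 and 39.1. Differences were taken after quantile normalization as log2(intensity + 16) and are called log2 differences below, always tim-MJD minus wild type, tested with limma. The 3 tim-MJD arrays share a scan day and the 3 wild type arrays share another, so the scan day cannot be told apart from the group. Nothing in the labels says that replicates were separate fly collections, and p-values then measure only the spread between these samples, which may be technical. RNA quality differed too: the 3' minus 5' signal of the eIF-4a controls was 2.57 to 3.18 log2 units on tim-MJD arrays, and 9.63 on wild type 2 against 3.15 and 3.71 on wild type 1 and 3. The middle 18S ribosomal RNA control read 16.8 to 17.4 log2 units on tim-MJD arrays, and 12.7, 12.0 and 16.7 on wild type 1, 2 and 3. Tim-MJD 2 stood apart in fat body transcripts. The sum of 8 fat body markers was 45400 on it, against 2160620 and 2185920 on tim-MJD 1 and 3. That sum is set mostly by the yolk protein genes Yp1, Yp2 and Yp3. These read 1006610, 378875 and 731860 on tim-MJD 1, against 28281, 1019 and 8896 on tim-MJD 2. Without tim-MJD 2, TpnC41C differed by -0.89 log2 units (adjusted p = 0.134 in limma).

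Across the 6 members 0 passed an adjusted p of 0.05, where 2.48% of all 8379 tested probe sets did, 1.54% higher and 0.943% lower in tim-MJD heads. At an unadjusted p under 0.05 there were 2 members, TpnC41C lower and Act87E higher. Of all tested probe sets 15.6% were under it, 7.95% lower and 7.70% higher. Groups did not overlap for the same 2 members. This held for 21.9% of all tested probe sets, 11.9% lower and 10.0% higher. The median log2 difference of the members was 0.10, with a range of -0.91 to 1.05, beside a median of -0.0026 over all tested probe sets. All 6 members passed the filter on dim probe sets, and 5 of them read above the negative controls on every array.

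**Figure D1:**
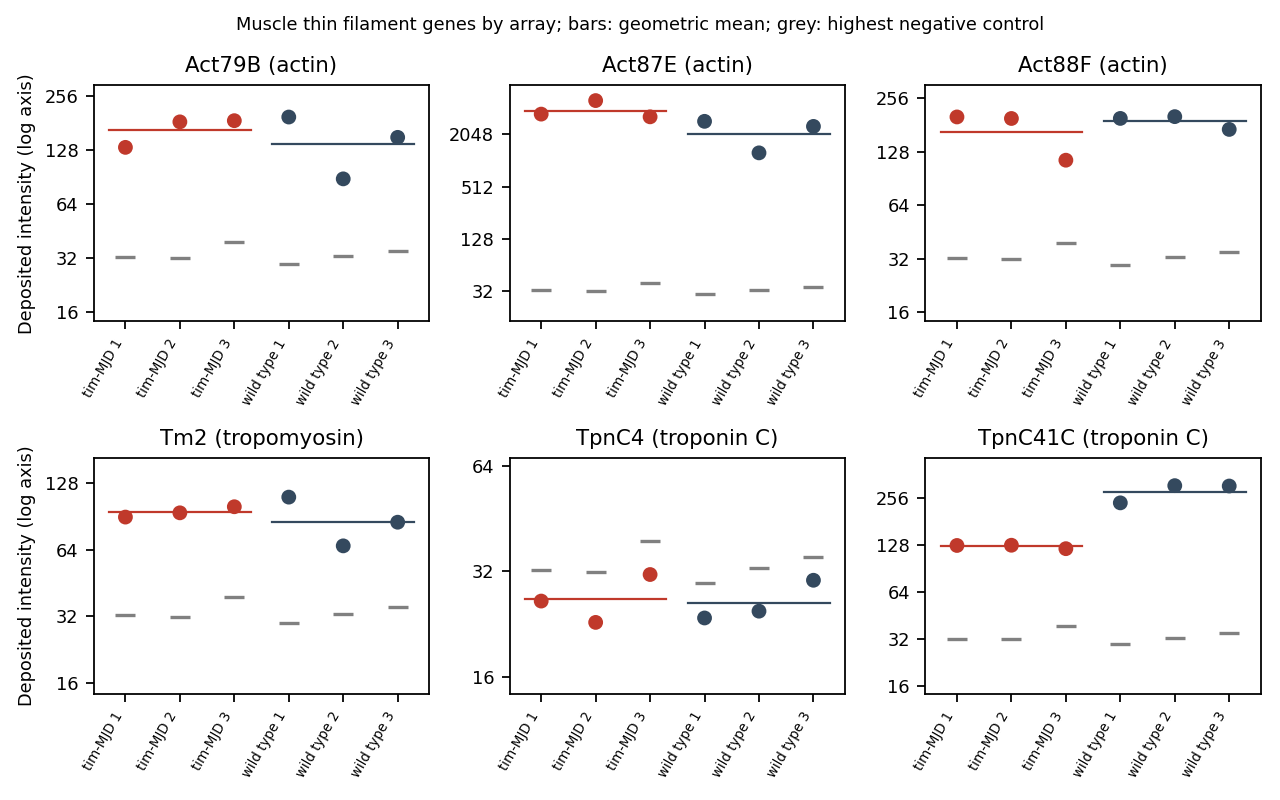
Deposited intensity (log axis) of the 6 muscle probe sets on each array, tim-MJD in red and wild type in dark blue, with a bar at the geometric mean of each group and a grey dash at the highest negative control of each array. The 3 tim-MJD values of TpnC41C lie between 122 and 128, below all wild type values, while TpnC4 stays below the grey dashes on all arrays.

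Troponin C is the calcium sensor of the thin filament. TpnC41C had intensities of 127, 128 and 122 on the tim-MJD arrays, against 239, 308 and 306 on the wild type arrays. The tim-MJD arrays lay close together and every one of them was below every wild type array. On the normalized log2 scale this was 7.21 ± 0.05 in tim-MJD heads and 8.12 ± 0.29 in wild type heads (SD, n = 3 each). The log2 difference was -0.91 ± 0.15 (SE, 95% interval -1.29 to -0.53). With an adjusted p of 0.0536 in limma it just missed the threshold, at rank 219 of 8379 by p. Within fluidics module 1, which washed 1 array of each group, the log2 difference was -0.92, and within module 2 it was -1.24.

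TpnC41C lay on the other side of the threshold under 8 of 22 settings, and its adjusted p spanned 0.0123 to 0.285. The highest came with the fluidics module as a term, a fit that compares the groups only within modules 1 and 2. It passed with the values as deposited (log2 difference -1.08, adjusted p = 0.0123), with median centring (-1.10, adjusted p = 0.0157) and without wild type 1 (-1.05, adjusted p = 0.0470). It was lower in tim-MJD heads under every setting run. The log base of the deposited values is unsettled: read as powers of e of log2 summaries, the difference was -0.68 (95% interval -0.97 to -0.40, adjusted p = 0.0450), which is 1.61 times lower. Because RNA came from whole heads, fewer muscle cells and less RNA per cell cannot be told apart for this or any gene below.

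TpnC4, the troponin C known from stretch-activated flight muscle, had intensities of 26.3, 22.9 and 31.4 on the tim-MJD arrays and 23.6, 24.6 and 30.2 on the wild type arrays. All of these were below the highest negative control of their array, so no difference between the groups was detectable for TpnC4. A troponin C gene outside the rule, TpnC73F, was above the controls on all arrays, and its log2 difference was -0.04 ± 0.11 (SE, 95% interval -0.32 to 0.25, adjusted p = 0.941 in limma).

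**Figure D2:**
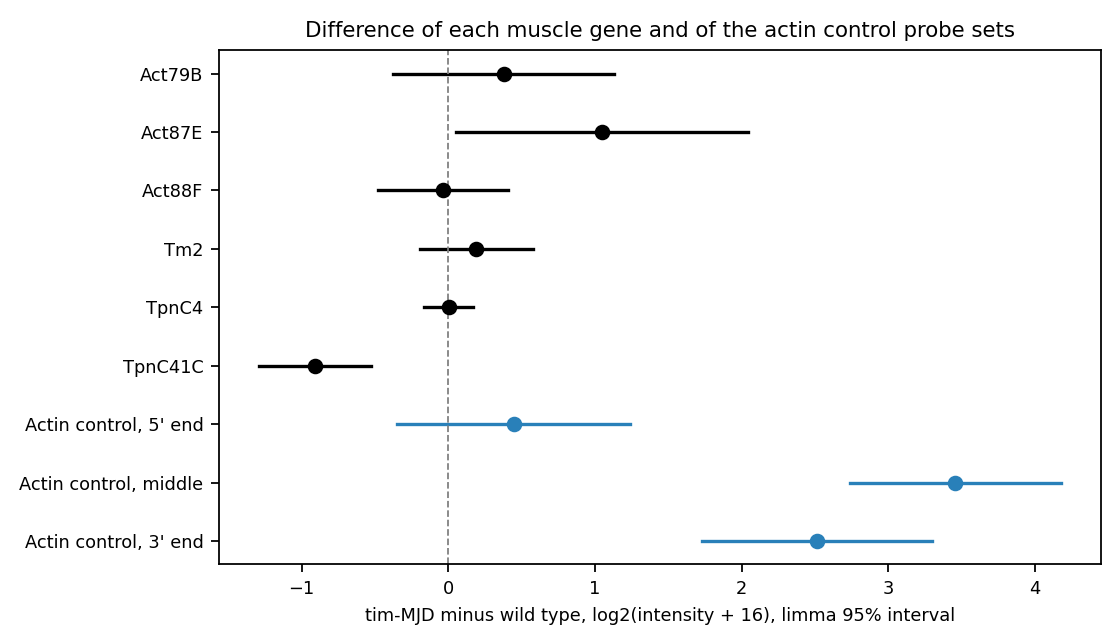
Log2 difference (tim-MJD minus wild type) with its 95% interval from limma for the 6 muscle probe sets (black) and the 3 actin controls of the array (blue, from a fit that kept array controls). The interval of TpnC41C lies below 0, that of Act87E starts just above it, and the middle and 3' actin controls stand at 3.46 and 2.51.

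Actin forms the backbone of the thin filament. The brightest deposited values among the members belonged to Act87E, with intensities of 3520.0, 5045 and 3275 on the tim-MJD arrays, against 2905, 1256 and 2538 on the wild type arrays. Every tim-MJD array lay above every wild type array, and wild type 2 was the lowest. The normalized log2 values were 12.00 ± 0.27 in tim-MJD heads and 10.95 ± 0.74 in wild type heads (SD, n = 3 each). The log2 difference of 1.05 ± 0.40 (SE, 95% interval 0.05 to 2.04) did not pass (adjusted p = 0.297 in limma). It was 0.62 without wild type 2, the array with the steep eIF-4a signal, and 0.42 with the 18S signal as a covariate. Within fluidics modules 1 and 2 it was 1.71 and 0.85. The part of RNA quality in this difference was not tested beyond these values.

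**Figure D3:**
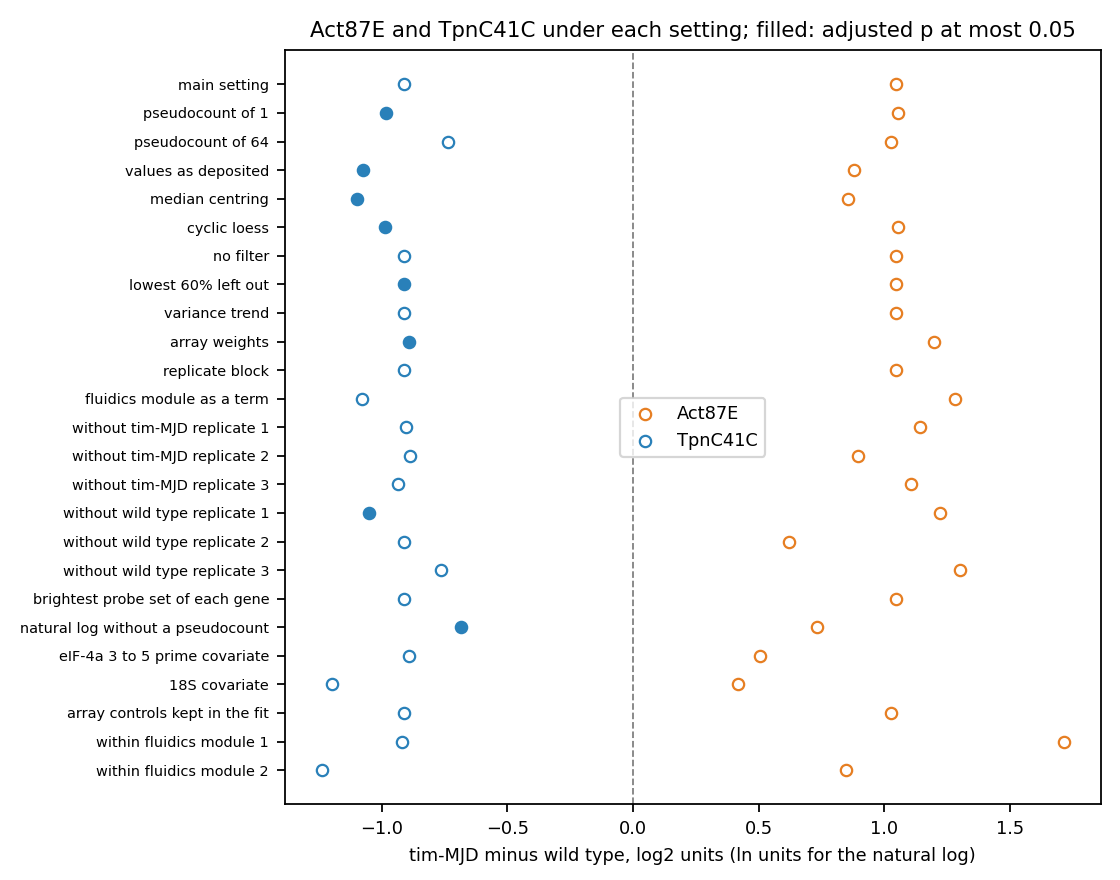
Log2 difference (tim-MJD minus wild type; ln units for the natural log) of Act87E and TpnC41C under each setting, filled where the adjusted p was at most 0.05. TpnC41C stays below 0 throughout, between -1.24 and -0.68, and is filled under 8 settings, while Act87E stays above 0, between 0.42 and 1.71, and is never filled.

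Act79B had intensities of 132, 183 and 186 on the tim-MJD arrays, against 195, 88.2 and 150 on the wild type arrays. The groups overlapped, with wild type 1 the highest and wild type 2 the lowest. The log2 difference was 0.38 ± 0.30 (SE, 95% interval -0.38 to 1.13, adjusted p = 0.651 in limma) and 0.09 without wild type 2. The probe sets of Act79B and Act87E carry the suffix _f, which marks probes that match several members of a gene family. Actin coding sequences are nearly identical between genes, so signal of these 2 probe sets cannot be assigned to 1 actin gene with certainty.

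Act88F, the actin known from indirect flight muscle, had intensities of 201, 197 and 115 on the tim-MJD arrays, against 197, 202 and 171 on the wild type arrays. The groups overlapped, and tim-MJD 3 was the low array. The log2 difference was -0.03 ± 0.18 (SE, 95% interval -0.48 to 0.41, adjusted p = 0.966 in limma), and without tim-MJD 3 it was 0.16, so it has no settled direction.

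Tm2, a tropomyosin of most fly muscles, had intensities of 89.9, 94.0 and 100.1 on the tim-MJD arrays, against 111, 66.7 and 85.2 on the wild type arrays. The deposited tim-MJD values lay inside the range of the wild type values. The log2 difference was 0.19 ± 0.15 (SE, 95% interval -0.19 to 0.57, adjusted p = 0.650 in limma). It was 0.05 without wild type 2 and 0.32 without wild type 1. The spread between wild type arrays was wider (SD 0.27) than that between tim-MJD arrays (SD 0.11).

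The members had their lowest values on different arrays. Wild type 2 gave the lowest normalized value of Act79B, Act87E and Tm2, 3 of 6 members, where it was the lowest array for 14.5% of all tested probe sets. For TpnC41C the lowest value was on tim-MJD 2, and for Act88F on tim-MJD 3. The centred log2 values averaged over the 6 genes were -0.0067, 0.11 and 0.06 on tim-MJD 1, 2 and 3, and 0.05, -0.35 and 0.13 on wild type 1, 2 and 3, so this average is low on wild type 2. Outside the members, the probe sets closest to it over the 6 arrays were those of alpha-Man-Ib (Pearson r = 0.974), CG13248 (0.972), Cnot4 (0.971), CanB (0.961) and pdm3 (0.960). These are the highest of 7407 candidates over 6 arrays and are given without a test.

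The actin controls of the array read the ends and middle of an actin transcript. The 3' control had intensities of 708, 1336 and 499 on the tim-MJD arrays, against 165, 158 and 113 on the wild type arrays. The middle control had 205, 432 and 219 on the tim-MJD arrays, against 14.9, 6.57 and 14.0 on the wild type arrays. For both, every tim-MJD array was above every wild type array, and tim-MJD 2 was the highest. Of all tested probe sets 10.0% were higher without overlap. On normalized values the 5' actin control, the GAPDH controls and the 5' 18S and eIF-4a controls were also higher without overlap. The 3' eIF-4a control was lower without overlap. The other 18S and eIF-4a controls overlapped. The middle actin control was not above the negative controls on any wild type array. It was at least 6.23-fold higher in tim-MJD heads, where the wild type mean takes the higher of the probe set and the highest negative control on each array. Read as powers of e of log2 summaries, that bound was 4.50-fold. The 3' actin control was above the negative controls on all arrays. It differed by 2.51 log2 units, or 5.71-fold, and by 1.84 units, or 3.57-fold, if the values are powers of e. The difference between the array controls and the muscle actins was not tested.

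Two-sided exact permutation tests gave p = 0.1 for the middle and 3' actin controls, the smallest p that 3 against 3 arrays allow. The same p was reached by the 5' actin control, all GAPDH controls, the 5' 18S control and the 5' and 3' eIF-4a controls. In a limma fit that kept the array controls, an alternative chosen after seeing the data in which 2.54% of 8401 probe sets passed and 1.55% passed higher, the 3' control rose by 2.51 ± 0.31 (SE, adjusted p = 0.0239). In the same fit the middle control rose by 3.46 ± 0.29 (SE, adjusted p = 0.00670), a size that depends on the 16 added, since wild type read at control level. The 5' control had intensities of 19.2, 59.8 and 23.1 on the tim-MJD arrays and 15.6, 19.2 and 19.3 on the wild type arrays, and of these only that of tim-MJD 2 was above the negative controls. The gene table lists the middle control as a synonym of the cytoplasmic actin gene Act42A, whose product is known from cells of most tissues, and lists the Act79B probe set under Act79B. No probe set is paired with Act42A or Act5C, the other cytoplasmic actin, in the annotation used here.

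**Figure D4:**
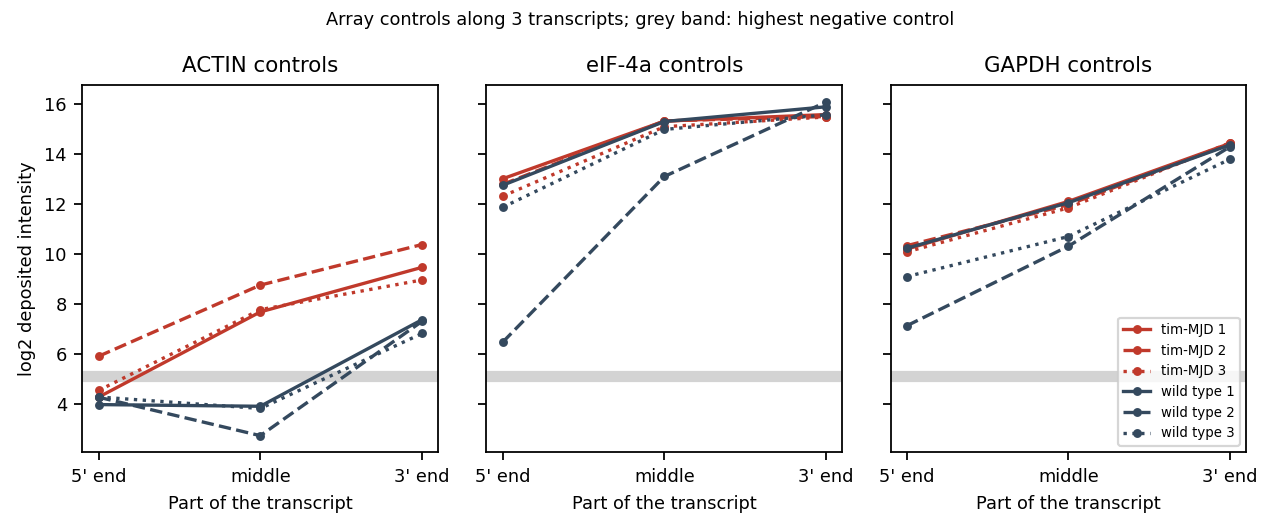
Log2 deposited intensity of the array controls at the 5' end, middle and 3' end of the actin, eIF-4a and GAPDH transcripts, with 1 line per array (tim-MJD red, wild type dark blue) and a grey band for the range of the highest negative control. The actin controls separate the groups at the middle and 3' end, and the 3' GAPDH control also separates them, with 21986 to 22617 on tim-MJD arrays and 14349 to 21334 on wild type arrays.

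Other sarcomere genes were read from a list of 34, of which 27 had a probe set and 25 were tested, each by its brightest probe set. Of these 25, 0 passed in limma, beside 2.48% of all tested probe sets. An unadjusted p under 0.05 was reached by 2, both higher, beside 15.6% of all tested probe sets under it and 7.70% under it and higher. The 2 of 25 are a share near the background for the higher direction. Their median log2 difference was -0.04, with 10 above 0 and 15 below, beside the -0.0026 of all tested probe sets. By role, the median was -0.04 over 3 thin filament genes, -0.06 over 8 thick filament and connecting genes, -0.10 over 10 Z disc and anchoring genes and -0.17 over 4 calcium and energy genes.

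These were Z disc genes of the Zasp family, which anchor actin filaments. Zasp66 had intensities of 1176, 1285 and 1368 on the tim-MJD arrays, against 815, 793 and 834 on the wild type arrays. The groups did not overlap, and the log2 difference was 0.84 ± 0.19 (SE, adjusted p = 0.0936 in limma). The brightest Zasp52 probe set had 245, 375 and 318 on the tim-MJD arrays, against 178, 97.8 and 166 on the wild type arrays, a log2 difference of 1.16 ± 0.28 (SE, adjusted p = 0.113 in limma). All 3 probe sets of Zasp52 were higher in tim-MJD heads without overlap, beside 10.0% of all tested probe sets. A dimmer Zasp52 probe set, named after its values were seen, rose by 1.17 ± 0.14 (SE, adjusted p = 0.0230 in limma). It had 141, 103 and 104 on the tim-MJD arrays against 48.1, 36.6 and 49.2 on the wild type arrays. Zasp66 passed under 2 settings, the values as deposited (0.64, adjusted p = 0.0249) and median centring (0.62, adjusted p = 0.0195).

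**Figure D5:**
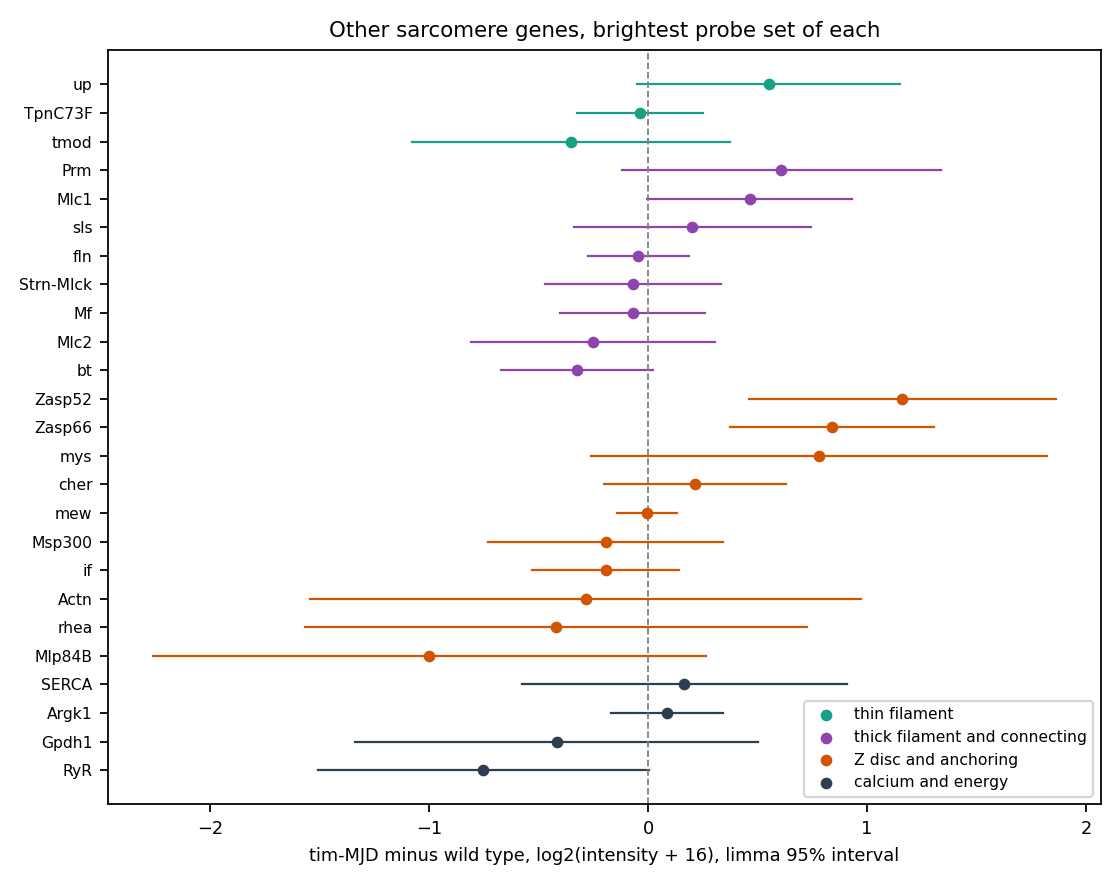
Log2 difference (tim-MJD minus wild type) with its 95% interval from limma for the 25 other sarcomere genes tested, coloured by role and given by the brightest probe set of each. Most intervals cross 0, and those of Zasp52 and Zasp66 lie above it.

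On the lower side the largest difference in the list was that of Mlp84B, a LIM protein of the Z disc. It had intensities of 537, 723 and 210.1 on the tim-MJD arrays, against 787, 1865 and 695 on the wild type arrays. The groups overlapped and the spread was wide, so the log2 difference of -0.999 ± 0.50 (SE) had an interval of -2.26 to 0.26 (adjusted p = 0.441 in limma). It was -0.58 without tim-MJD 3, -0.61 without wild type 2 and -0.11 within fluidics module 2. On tim-MJD 3 Mlp84B was the lowest of the 6 arrays, as was Act88F. That array was also the lowest for Mlc2, SERCA and RyR, a myosin light chain, the calcium pump and the calcium release channel of the sarcoplasmic reticulum, and in all for 7 of 25 genes (28%), where it was the lowest for 15.4% of all tested probe sets. The part of this array in the members' values, which were 115 for Act88F against 197 and 201 on the other tim-MJD arrays, was not tested.

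Genes of non-muscle actin, myosin and actin regulators were read from a list of 13, of which 4 had a probe set, all tested. Here 1 rose and 3 did not pass, beside 1.54% of all tested probe sets that passed higher. The gene that rose was chic, which encodes the actin monomer binding protein profilin. It had intensities of 6489, 9905 and 8452 on the tim-MJD arrays, against 1911, 3448 and 1788 on the wild type arrays. The groups did not overlap, and it rose by 1.97 ± 0.28 log2 units (SE, adjusted p = 0.0350 in limma). The call was lost under 9 of 22 settings. These were median centring, no filter, array weights, the fluidics module as a term (adjusted p = 0.418 in limma), the 18S covariate, and leaving out any one of tim-MJD 2, tim-MJD 3, wild type 1 and wild type 3. The fit with the module term compares the groups only within modules 1 and 2.

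The actin severing protein cofilin, encoded by tsr, had 3014, 4159 and 3400 on the tim-MJD arrays, against 1604, 1904 and 2424 on the wild type arrays, without passing (1.04 ± 0.27 SE, adjusted p = 0.139 in limma). Mlc-c, a cytoplasmic myosin light chain, differed by 0.43 and Gel, an actin severing protein of the gelsolin family, by 0.05. The log2 differences of all 4 genes were positive, where 51.0% of all tested probe sets were negative. That of Gel was smaller than its SE of 0.27.

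Of 14 genes that regulate muscle formation or folding of its proteins, 7 had a probe set and 2 were tested. Neither passed, with E2f1 at 0.36 ± 0.09 (SE, adjusted p = 0.128 in limma) and the myosin chaperone unc-45 at -0.02 ± 0.15 (SE, adjusted p = 0.976 in limma). The other 5, nau, salm, lmd, twi and vg, were below the negative controls on all arrays.

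Markers of cell types that a head sample can hold were read beside these values. Of 9 general muscle markers with a probe set, 8 were above the negative controls on all arrays and 1, Mlp60A, on none. Their summed intensity was 10315 to 19489 on the tim-MJD arrays, against 15800.5 to 17953 on the wild type arrays, so the groups overlapped. This muscle sum is set mostly by the bright myosin light chain gene Mlc2. Of 3 indirect flight muscle markers, Act88F was above the controls on all arrays, fln on 5 of 6 and TpnC4 on none. Their summed intensity was 193 to 259 on the tim-MJD arrays and 246 to 264 on the wild type arrays. All 4 photoreceptor markers with a probe set were above the controls on every array, summing to 463995 to 564851 in tim-MJD heads and 411478 to 550470 in wild type heads. That sum is set mostly by the bright arrestins Arr1 and Arr2. Of the 4, 0 passed in limma, beside 2.48% of all tested probe sets. At an unadjusted p under 0.05, 1 was lower, inaD, a scaffold protein of the light response, with a log2 difference of -0.55. Its groups did not overlap. Of all tested probe sets 7.95% were lower at that p and 11.9% were lower without overlap. The median of the 4 photoreceptor markers was -0.10.

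Of 8 fat body markers tested, 1 fell, the odorant binding protein gene Obp99b, and 7 did not pass in limma, beside 0.943% of all tested probe sets that passed lower. Obp99b no longer passed without tim-MJD 3 or without any one wild type array. Groups did not overlap for 4 of the 8, all lower in tim-MJD heads, beside 11.9% of all tested probe sets. The median log2 difference of the markers was -2.36. Without tim-MJD 2 that median was -0.71. The yolk protein gene Yp1 had intensities of 1006610, 28281 and 997079 on the tim-MJD arrays, against 2612300, 1409700 and 1082570 on the wild type arrays. The summed intensity of the markers, set mostly by the yolk protein genes, was 2160620, 45400 and 2185920 on the tim-MJD arrays. On the wild type arrays it was 5452860, 3293930 and 2258280. Every tim-MJD sum was below every wild type sum, and that of tim-MJD 2 was by far the lowest.

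Glial markers had a median of -0.45 and 0 of 4 passed in limma. All 4 differences were negative, beside 51.0% of all tested probe sets. Above the negative controls on all arrays were 3 of the 4, while repo was above them only on wild type 2. The summed intensity of the 4, set mostly by Gs2, was 3492 to 6247 on the tim-MJD arrays and 7561 to 19833 on the wild type arrays, without overlap. An unadjusted p under 0.05 was reached by 1 of 4 glial (lower), 1 of 4 neuronal (higher) and 2 of 6 hemocyte markers (lower). Of all tested probe sets 15.6% were under it, 7.95% lower and 7.70% higher. The median was 0.05 for the neuronal and -0.05 for the hemocyte markers, and 0 of them passed in limma, beside 2.48% of all tested probe sets. Neuronal differences ran from -1.63 (Rdl, overlapping groups) to 1.63 (nSyb, adjusted p = 0.0578 in limma). Hemocyte differences ran from -0.61 (Sr-CI, adjusted p = 0.0823 in limma) to 0.78 (Hml, overlapping groups). Groups did not overlap for nSyb, nor for 1 higher and 2 lower hemocyte markers, beside 10.0% of all tested probe sets higher and 11.9% lower. The part of fat body and glial RNA in the TpnC41C difference was not tested.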

How the data were processed

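Heads of 6 fly samples had been hybridised to DrosGenome1 arrays, per the file headers. The authors deposited 1 intensity value for each probe set, on a linear scale. The sources used here do not say how probes were summarised, corrected for background, scaled and centred. Array controls (44) were kept out of the fit. The other 13966 probe sets were quantile normalized as log2(intensity + 16), and controls took their values from a normalization of the whole table. The dimmest 40% by mean value were removed and 8379 remained. Groups were compared with limma 3.58.1 under R 4.3.3 (lmFit, eBayes with no variance trend, two-sided tests, Benjamini-Hochberg adjustment, threshold 0.05), a procedure tested on simulated data. Single control probe sets had an exact permutation test (scipy 1.17.1). Gene names came from the platform annotation, updated through a current gene table, and coordinates are left out because the values name no genome build.

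The members and gene lists were chosen with earlier results of these data known. Named genes were all members, genes of each list past the threshold (up to 6), the 5 probe sets most like the members' average, and Act5C and Act42A. The 2 largest differences were also named for the sarcomere, non-muscle and muscle regulator lists. For the cell type marker lists this last rule was not applied. Genes named after their values were seen were Mlc-c, Gel, TpnC73F, Zasp66, Yp1, Yp2, Yp3, inaD, Arr1, Arr2, Gs2, Mlc2, SERCA and RyR. Further such genes were repo, nSyb, Rdl, Sr-CI and Hml. The dimmer Zasp52 probe set and the regulators below control level were also named then. Alternatives were pseudocounts of 1 and 64, other normalizations, filters, variance and weight options, blocks, single arrays left out and, added after seeing the data, the natural log, 2 RNA quality covariates, a fit with array controls, and marker medians without single arrays. Whether replicate numbers pair the samples was not settled. Deviations of same-numbered arrays correlated at 0.29, 0.05 and 0.30, and those of differently numbered arrays at -0.31 to 0.11.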

Additional observations from a re-analysis of the deposited data

How the results depend on the processing

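No member passed with pseudocount 64, without the filter, with the variance trend, with the replicate block, with the module as a term or with the RNA quality covariates. The number of members past the threshold was 1, always TpnC41C, with a pseudocount of 1, the deposited scale, median centring, cyclic loess, the lowest 60% left out, array weights and the natural log. It was 0 to 1 when single arrays were left out, with 1 without wild type 1. The number of other sarcomere genes past the threshold was 1, Zasp66, with the deposited scale and with median centring, and 0 whichever array was left out. The actin regulator chic passed under 13 of 22 settings and missed under 9, with adjusted p in limma from 0.0176 to 0.418.

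Over all probe sets the count was 208. It was 122 with median centring, 102 without the filter and 387 with the lowest 60% left out. With the fluidics module as a term it was 0 (980 at an unadjusted p under 0.05 in limma). Module 3 washed only tim-MJD 3 and module 4 only wild type 1, so that fit compares the groups only within modules 1 and 2. It leaves little from which to estimate the spread. The count was 93 with the eIF-4a covariate and 37 with the 18S covariate. Leaving out single arrays gave 86 (without wild type 1) to 198, with 117 without wild type 2 and 112 without tim-MJD 3. With the replicate block the count was 84, and TpnC41C had an adjusted p of 0.0987 in limma. In deviations from the group mean, each tim-MJD array correlated best with the wild type array of its own number. Wild type 2 correlated best with tim-MJD 1 (0.11), not with its own number.

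The 3' actin control differed by 1.84 with the natural log and by 3.39 within module 2. The 5' control differed by 0.0011 and 1.17 within modules 1 and 2. The middle control differed by 4.55 and 2.22 with pseudocounts of 1 and 64, and by 3.93 within module 2. Leaving out single arrays gave 2.17 to 2.74 (3'), 0.09 to 0.64 (5') and 3.18 to 3.67 (middle).

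Differences near 0 changed sign. Act88F gave 0.060 with array weights, 0.15 with the module, 0.0070 with the 18S covariate and -0.15 to 0.16 without single arrays. TpnC4 gave -0.042 with the module, -0.012 with the eIF-4a covariate, -0.066 with the 18S covariate and -0.029 to 0.047 without single arrays. For unc-45 these were 0.15 and 0.20 with the covariates and -0.10 to 0.12 without single arrays. The cause was not tested. Signal near the negative controls limits TpnC4, the middle actin control in wild type and the 5' actin control. Only 3 arrays per group limit all intervals.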
